A study of Mus musculus with 8 samples.

Results

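The genes described here are p53 (Trp53), its 2 direct regulators Mdm2 and Mdm4, and well known mouse targets of p53 in cell cycle arrest, apoptosis, DNA repair and metabolism. They were chosen by name from a list of 36 genes, out of 35541 loci in the 8 h and 24 h tables and 35494 in the 1 h table. The rule uses no measured value, but the list was chosen with earlier results of these data known. Of the 36 genes, 34 had a row of their own in all 3 tables. Bax was measured only within a locus that also takes in Dhdh and Gm45808, and no row carried the name Ptprv. Gdf15 and Fas stayed below 1 FPKM (fragments per kilobase of transcript, scaled to the fragments sequenced, a level corrected for length) in all 6 columns, which left 32 members for comparison.

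The RNA came from mouse retinal organoids, cell aggregates that take on the fate of the eye field in culture, made from a line with a GFP reporter at Rx (Rax). In all 4 groups both endogenous Mettl3 alleles carried a C-terminal FKBP12F36V-HA tag, a degron through which the compound dTAG-13 brings the tagged protein to a ubiquitin ligase. METTL3 writes N6-methyladenosine (m6A), a methyl mark on messenger RNA. The groups were untreated (0 h) or had 125 nM dTAG-13 for 1, 8 or 24 h, with 2 replicates each, at day 6 of differentiation. The labels name 1 cell line, and do not say whether the 0 h samples received solvent, whether the replicates were separate cultures or whether cells were sorted.

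p53 is a transcription factor that is kept low by its ubiquitin ligase MDM2 and the related MDM4, and is known to be controlled mainly through the stability of its protein. When DNA damage or other stress frees it, it binds a paired DNA element and raises genes that hold the cell cycle, start apoptosis, repair DNA and shift metabolism. Mdm2 is itself such a target, which closes a feedback loop. Cells of early embryos and pluripotent cells are known to carry p53 at readily measured levels. The measurements here are of RNA, and the p53 protein was not measured.

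Promoter sequences are shown first, because binding of p53 to paired elements defines a direct target. They are those of the called members with a window, of Mdm2, and of Ckap2, Sesn1 and Aen, which were not called. A p53 element is 2 copies of the p53 consensus half-site, 10 letters each, separated by 0 to 13 bases. Each copy has a core of 4 letters, in capitals, that begins with C, ends with G and has A or T in both places between. The consensus reads the same on both strands. Windows from 250 bases before to 50 after the start site came from RefSeq (GRCm38.p6) and were found for 26 of the 36 members. Genes with several start sites had several windows, all of which were searched. Each sequence is given 5′ to 3′ on its gene's strand. Those of Ccng1 and Mdm2 are single copies, not pairs.
Cdkn1a: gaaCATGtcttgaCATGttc
Trp53: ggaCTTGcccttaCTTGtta
Plk2: gctCTTGctcgcaCAAGcga
Ccng1: gggCAAGcct
Mdm2: gaaCTTGcct
Ckap2: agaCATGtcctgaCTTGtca
Sesn1: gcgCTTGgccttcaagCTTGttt
Aen: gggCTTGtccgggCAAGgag

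The Cdkn1a pair lies on the plus strand at chr17:29090928-29090947, begins 51 bases before the start site and matches 19 of 20 consensus letters without a spacer. Such a match or a better one stands in 0.0666% of the 27025 genes with a window of this length. A pair in the same window that matches all 20 letters has a spacer of 12 bases, begins with ggaCTAGctt at chr17:29090906-29090915 and shares its other copy with the pair printed above. The Trp53 pair matches 17 letters on the plus strand at chr11:69580284-69580303, from 75 to 56 bases before the start. The same bases lie upstream of Wrap53, a gene read in the opposite direction from a RefSeq start 109 bases away. The Plk2 pair crosses the start site at chr13:110395038-110395057 on the plus strand and matches 15 letters. At least 15 letters are reached by 28.04% of genes with spacers of 0 to 13 bases, and by 2.88% without a spacer.

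Ccng1 and Mdm2 had no pair with intact cores in this window. Each holds a single copy that matches all 10 letters, at chr11:40755462-40755471 and chr10:117710935-117710944, both on the minus strand, as do 9.55% of genes. The last 3 elements belong to members that were not called at any time. Other members with like matches, such as Bax (18 letters) and Bbc3 (17), are not printed. Ckap2 (chr8:22186003-22186022, minus strand) and Sesn1 (chr10:41887253-41887275, plus strand, spacer 3) match 18 letters, and Aen (chr7:78895937-78895956, plus strand, after the start) matches 17. Sesn1 had 2 windows, and the one with this element lies within the gene, which begins at 41809935.

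Pairs with at least 17 letters were present in 9 of the 26 members, or 34.6%, and in 7.63% of all genes. The 9 are Cdkn1a, Trp53, Ckap2, Mdm4, Bax, Bbc3, Aen, Sesn1 and Pltp, of which 2 were called lower in the comparisons below. With no spacer allowed, an alternative added after the data were seen, 5 of the 26 members (19.2%) and 0.673% of genes held such a pair. Ptprv, Trp53cor1, Pmaip1, Perp, Tnfrsf10b, Zmat3, Trp53inp1, Xpc, Ddb2 and Rrm2b were not among the windows. A match describes the letters of the window and is no evidence that p53 binds there.

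Each deposited table set 1 treated time against 0 h and held a single value per condition, combined over the 2 replicates. How far the replicates of a group differ cannot be seen in such values, and p-values could not be had. Each level is given with the interval that the authors deposited, whose coverage the headers do not state. The 3 comparisons share the 0 h libraries and are given side by side for that reason. Estimated counts summed to between 31361518 and 32562075 per condition. A locus was tested with at least 1 FPKM in one condition, and called when its level differed 1.5-fold or more and the intervals did not overlap. Mettl3 RNA was at 19.1 FPKM after 1 h, 19.4 after 8 h and 17.01 after 24 h, with 19.2 to 19.4 in the 0 h columns and no call. The degron acts on the protein, whose level was not measured here.

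Trp53 itself and 4 genes of the arrest group were called lower after dTAG-13, and no member was called higher at any time. At 1 h, 0 of 32 members were called, where 0.402% of all 13690 tested loci were (0.285% lower and 0.117% higher). At 8 h, 5 of 32 were called lower (Trp53, Cdkn1a, Ccng1, Plk2 and Trp53cor1), where 4.43% of 13825 loci were called (0.94% lower and 3.49% higher). At 24 h, 4 of 32 were called lower (the same genes without Plk2), where 5.48% of 13910 loci were called (1.65% lower and 3.83% higher). Among the 32 members the share called lower was 15.6% at 8 h and 12.5% at 24 h. These shares count Trp53cor1, which in the 8 h and 24 h comparisons reached the 1 FPKM limit through the 0 h column alone.

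With estimated counts and their deposited variances in place of FPKM and its intervals, 1 member (Trp53cor1) was called at 1 h, where 0.804% of loci were. By that rule 7 were called at 8 h, with Phlda3 and Pmaip1 added, where 8.29% of loci were. At 24 h it called 5, with Mdm4 added, where 10.3% of loci were. By the 1.5-fold limit without intervals the same members were lower, 1 at 1 h, 7 at 8 h and 5 at 24 h, where 2.57%, 4.8% and 6.53% of loci were. All of these members were lower, and none was higher under either rule. The shares of loci are of either direction for the count rule and of lower loci alone for the fold without intervals.

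Cell type markers moved over the same times. In bulk RNA, fewer cells of a type and less RNA per cell cannot be told apart. Rax, Lhx2, Six6 and Pax6, which define the eye field, were at 49.7, 142.4, 55.2 and 125.7 FPKM at 0 h in the 8 h table. The 7 eye field markers with a row summed to 515 FPKM before and 648 after 8 h of treatment, and to 517 and 684 when 24 h was compared, where Rax and Lhx2 were called higher. The 7 markers of pluripotent cells summed to 309 and 274 FPKM in the 8 h table, with 0 called. In the 24 h table they summed to 310 and 202, with Dppa5a (200 to 109 FPKM) and Tdgf1 (22.8 to 10.9) called lower. Most of the difference between these sums is Dppa5a alone. Of the other 5, none called, Pou5f1 (-0.27), Nanog (-0.14) and Esrrb (-0.18) had log2 ratios below 0 at 24 h, and Zfp42 (0.18) and Klf4 (0.33) above 0. Markers of neurons, mesoderm and endoderm, neural crest, and blood and endothelium each summed to below 7 FPKM in every column, and those of the telencephalon to between 18.8 and 22.6. Ptprc and Hbb-bs were at 0 FPKM at 0 h, and Tubb3 and Elavl3 had no row of their own. At 1 h no marker was called, with sums of 463 and 483 FPKM for 6 eye field markers and of 285 and 308 for 6 of pluripotent cells. The part of pluripotent or eye field cells in the p53 target levels was not tested.

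Trp53 encodes p53 and lies on chromosome 11 (GRCm38, 69580359 to 69591873, plus strand, 11 exons in GENCODE M21). In the 1 h table its level was 98.9 FPKM (interval 77.7 to 120.2) in the untreated column and 96.9 (76.8 to 117.0) in the treated column. In the 8 h table it was 100.2 (80.2 to 120.2) at 0 h and 58.1 (46.6 to 69.5) after treatment. In the 24 h table it was 100.5 (80.1 to 121.0) at 0 h and 53.9 (42.9 to 64.9) after treatment. Trp53 RNA was thus level at 1 h and low at both later times, with intervals that did not meet, and log2 ratios of -0.03, -0.79 and -0.90. Among members it was the third highest at 0 h, after Ccng1 and Psrc1, whose intervals overlap its own. Wrap53, the neighbour that shares the upstream bases printed above, stood at 15.1 FPKM before and 15.1 after 8 h (log2 ratio 0.00) and at 15.3 after 24 h (0.01).

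Mdm2, the ligase that limits p53 and a target of it, was not called at any time. Its level was 48.3 FPKM at 0 h and 46.1 at 1 h, 49.0 (36.3 to 61.6) and 40.3 (30.6 to 50.1) in the 8 h table, and 49.1 and 47.4 in the 24 h table. The intervals overlapped in each table, and the log2 ratios were -0.07, -0.28 and -0.05. Mdm4, the related inhibitor without ligase activity of its own, went from 46.0 to 32.7 FPKM in the 1 h table, from 39.5 to 30.2 in the 8 h table and from 39.6 (27.1 to 52.1) to 25.9 (18.8 to 33.0) in the 24 h table. Its intervals overlapped each time, with log2 ratios of -0.49, -0.39 and -0.61, and at 24 h the ratio passed 1.5-fold without a call.

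**Figure D1:**
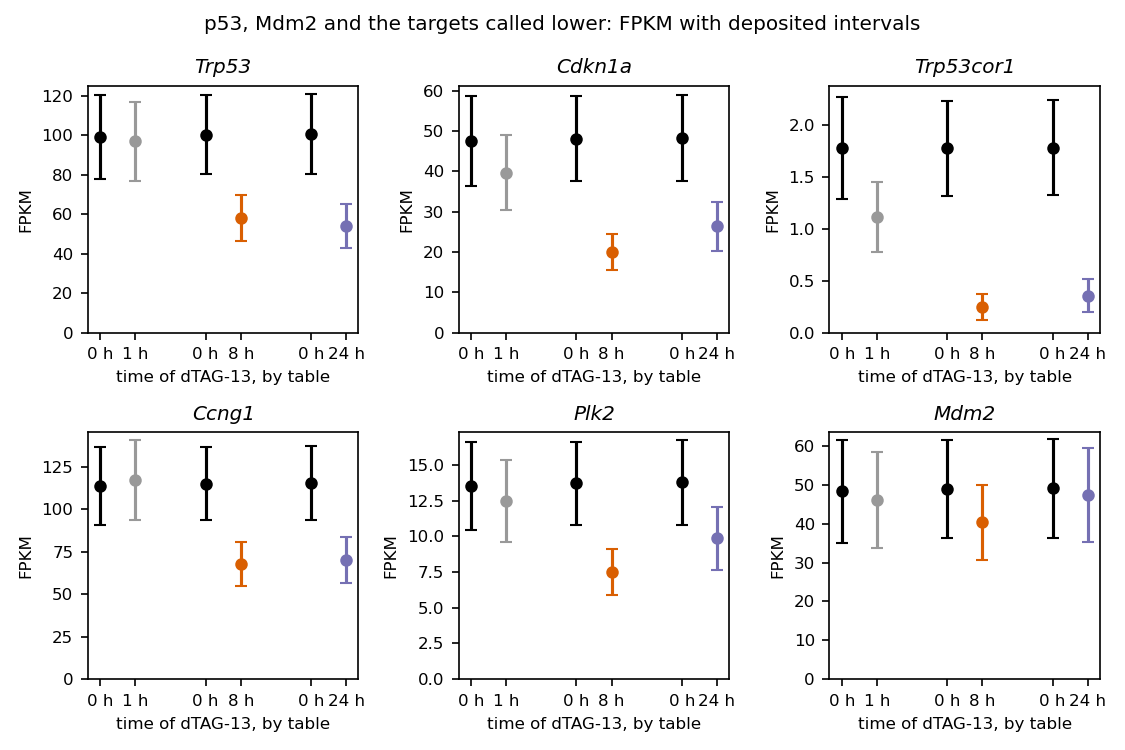
FPKM (vertical axes, from 0) of Trp53, Mdm2 and the 4 targets called lower, in the 0 h column (black) and the treated column (coloured) of each of the 3 tables. Bars are the deposited intervals. At 8 h the intervals of 5 of the 6 genes lie apart from those at 0 h, and those of Mdm2 overlap at every time.

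Among the arrest genes, 4 of 7 tested members were called lower at 8 h and 3 of 7 at 24 h, where 0.94% and 1.65% of all tested loci were. These counts include Trp53cor1, which at both times reached the 1 FPKM limit through the 0 h column alone. The members were chosen with earlier results of these data known, and whether this group differs from the other members was not tested. Cdkn1a (chromosome 17, 29090979 to 29100727, plus strand) encodes p21, the inhibitor of cyclin-dependent kinases through which p53 holds the cell cycle. It was at 47.5 FPKM (36.4 to 58.6) at 0 h and 39.7 (30.5 to 48.9) at 1 h. When 8 h was compared it was at 48.1 (37.5 to 58.6) and 20.1 (15.6 to 24.5). In the 24 h table it was at 48.2 (37.5 to 59.0) and 26.4 (20.3 to 32.4). The level after 8 h was 41.7% of that at 0 h (log2 ratio -1.26), and after 24 h 54.7% (-0.87), with a 1 h ratio of -0.26 and overlapping intervals. At 8 h, 1.02% of tested loci had a lower ratio than Cdkn1a.

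Trp53cor1 (lincRNA-p21) is a long noncoding RNA known as a p53 target, transcribed away from Cdkn1a on the minus strand of chromosome 17 (29057430 to 29079179) with its start 11800 bases from that of Cdkn1a. It was the least abundant member above the limit, at 1.78 FPKM (1.29 to 2.26) at 0 h and 1.11 (0.776 to 1.45) at 1 h. When 8 h was compared it was at 1.77 (1.32 to 2.23) and 0.244 (0.118 to 0.369), from 231 and 32.1 estimated counts. In the 24 h table it was at 1.78 (1.32 to 2.23) and 0.355 (0.197 to 0.512), from 229 and 45.6 estimated counts. Its intervals overlapped at 1 h (log2 ratio -0.63) and lay far apart at 8 h (-2.44) and 24 h (-2.05), and at 8 h 0.181% of tested loci had a lower ratio. The size of these ratios depends on the pseudocount: with 1 FPKM in place of 0.1 they were -1.16 and -1.04, and with estimated counts -2.83 and -2.31, with the calls kept.

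Ccng1 encodes cyclin G1, a p53 target that takes part in feedback on p53 through MDM2 and a phosphatase, and lies on chromosome 11 (40748552 to 40755311, minus strand). It was the most abundant member, at 113.8 FPKM (90.8 to 137) at 0 h and 117 (93.7 to 141) at 1 h. It was at 115 (93.6 to 137) and 68.0 (55.2 to 80.8) in the 8 h table, and at 116 (93.7 to 137) and 70.3 (56.9 to 83.8) in the 24 h table. The intervals overlapped at 1 h (log2 ratio 0.05) and lay apart at 8 h (-0.76) and 24 h (-0.72).

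Plk2 (chromosome 13, 110395046 to 110400844, plus strand) encodes a polo-like kinase induced by p53. It was at 13.6 FPKM at 0 h and 12.5 at 1 h (log2 ratio -0.12). In the 8 h table it was at 13.7 (10.8 to 16.6) and 7.51 (5.87 to 9.14), with a ratio of -0.86. In the 24 h table it was at 13.8 (10.8 to 16.7) and 9.86 (7.65 to 12.1), where the intervals overlapped and the ratio was -0.48. It was thus called at 8 h alone, and no test of the difference between 8 h and 24 h could be made.

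The other arrest members were Psrc1, Plk3, Ckap2 and Gdf15. Psrc1, which encodes a spindle protein, was at 109.1 FPKM (84.3 to 134.0) at 0 h and 72.8 (56.5 to 89.1) after 8 h, just inside the 1.5-fold limit (-0.58), and had a ratio of -0.55 at 24 h. Plk3, another polo-like kinase, had ratios of -0.25 and -0.15 at these times. Ckap2, a microtubule-associated protein, was at 58.1 FPKM before and 58.2 after 8 h (0.00). Gdf15, a secreted stress factor, was near 0.291 FPKM and was not tested.

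**Figure D2:**
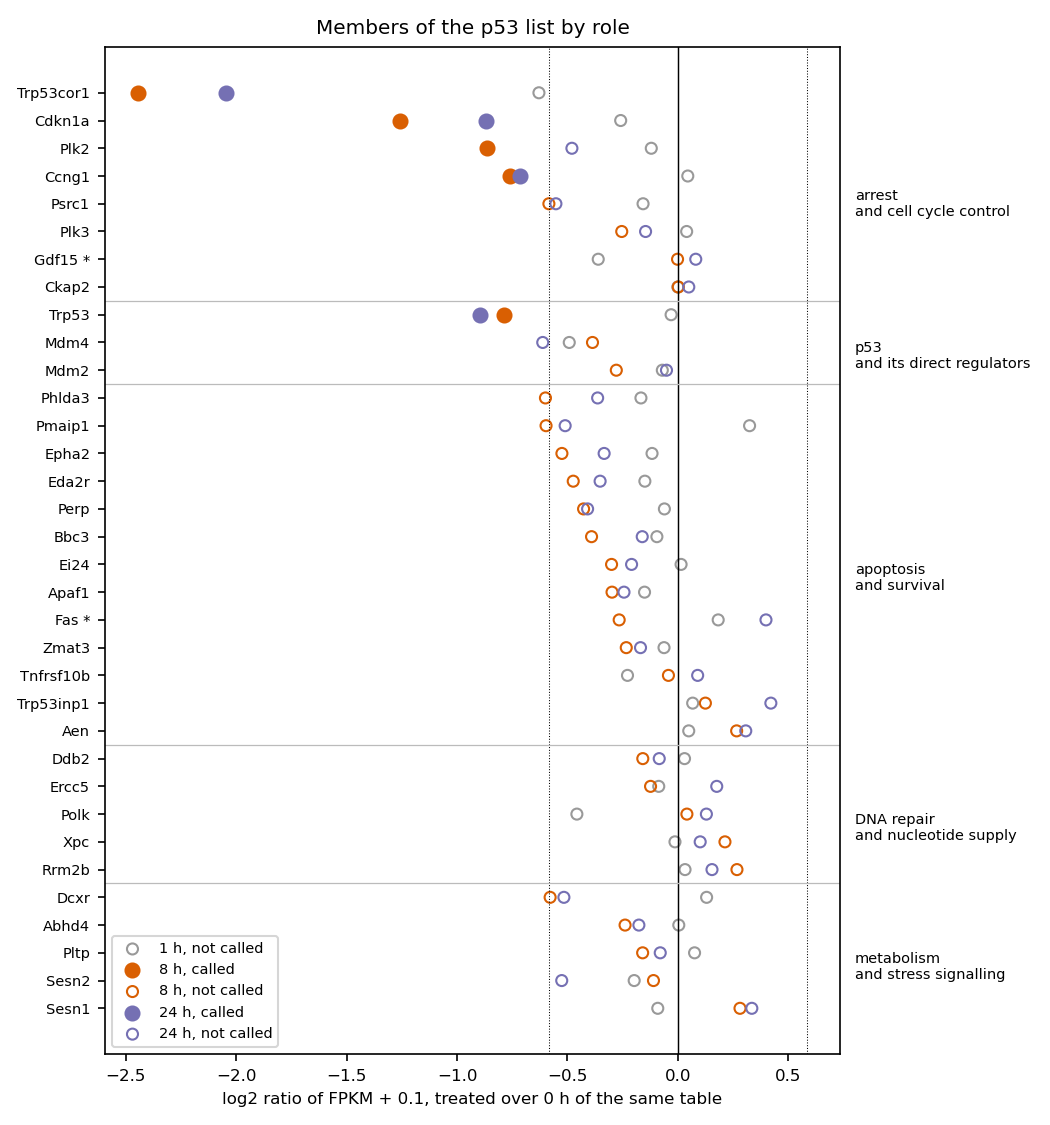
Log2 ratio of FPKM + 0.1, treated over 0 h of the same table, for the 34 members with a row of their own, by role. Filled points were called (1.5-fold, dotted lines, and deposited intervals apart), open points were not, and the asterisk marks the 2 members below 1 FPKM. Filled points lie on the left side only, in the arrest group and at Trp53.

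None of the 12 tested members in the apoptosis and survival group was called at any time, with medians of -0.08, -0.35 and -0.23 at 1, 8 and 24 h. Of all tested loci, 0.402%, 4.43% and 5.48% were called at these times, and 0 of 12 is near such shares. Whether this group differs from the arrest group was not tested. The BH3-only genes Bbc3 (PUMA) and Pmaip1 (NOXA), whose proteins release the mitochondrial arm of apoptosis, were at 14.2 (10.8 to 17.6) and 4.81 (3.70 to 5.92) FPKM at 0 h in the 8 h table. After 8 h they were at 10.8 (7.77 to 13.9) and 3.15 (2.35 to 3.94). The intervals overlapped for both, although the Pmaip1 ratio of -0.60 was past 1.5-fold. At 24 h their ratios were -0.16 and -0.51. Phlda3, which encodes a repressor of AKT signalling, went from 29.3 (23.3 to 35.3) to 19.3 (15.2 to 23.4) FPKM in the 8 h table, a ratio of -0.60 past the limit with intervals that overlapped by a narrow margin, and had -0.36 at 24 h.

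Epha2, a receptor tyrosine kinase, and Eda2r, a receptor of the tumour necrosis factor family, had 8 h ratios of -0.52 and -0.47, near the limit without a call. Perp, a membrane protein of desmosomes and apoptosis, had -0.43, and Apaf1, the scaffold of the apoptosome, had -0.30. Ei24, a protein of the endoplasmic reticulum, had -0.30 and the RNA-binding protein gene Zmat3 had -0.23. The death receptor gene Tnfrsf10b had -0.04. The 2 members of the group above 0 at both later times were Aen, a nuclease gene (0.27 and 0.31), and Trp53inp1, a stress protein gene (0.13 and 0.42). The locus that holds Bax with Dhdh and Gm45808 went from 171.7 to 157.3 FPKM at 8 h (-0.13) and had -0.05 at 24 h, and these values cannot be assigned to Bax. Fas, a death receptor gene, was at 0.340 FPKM in the 0 h column and was not tested.

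The DNA repair and nucleotide supply group lay around 0, with medians of -0.01, 0.04 and 0.13. Of its members 0 of 5 were called, where 4.43% of all loci at 8 h and 5.48% at 24 h were. Xpc and Ddb2, which recognise damage in nucleotide excision repair, had 8 h ratios of 0.21 and -0.16. Ercc5, an endonuclease gene of the same pathway, had -0.12 at 8 h and 0.18 at 24 h. Polk, a translesion polymerase gene, had -0.46 at 1 h and 0.04 at 8 h, and Rrm2b, a ribonucleotide reductase subunit gene, had 0.27. The locus of Ddb2 overlaps Acp2 and that of Pltp overlaps Ctsa and Neurl2, all expressed. Strand use in counting is not given in the sources used here, so the levels of Ddb2 and Pltp are uncertain. In the 1 h table Ei24 also overlapped expressed loci. The members called lower overlapped none.

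Of 5 genes of metabolism and stress signalling, 0 were called, where 4.43% of all loci at 8 h and 5.48% at 24 h were. Their medians were 0.00, -0.16 and -0.18. The sestrins, inhibitors of mTORC1 signalling, had ratios on opposite sides of 0 at 8 h and 24 h, and both below 0 at 1 h (-0.09 and -0.20). Sesn1 was at 10.9 FPKM (8.50 to 13.3) at 0 h and 13.3 (10.5 to 16.1) after 8 h, with ratios of 0.28 at 8 h and 0.34 at 24 h. Sesn2 was at 35.5 (28.6 to 42.4) at 0 h and 24.6 (19.8 to 29.5) in the 24 h table, with ratios of -0.11 and -0.53. Dcxr, a carbonyl reductase gene, had -0.58 and -0.52, near the limit. Abhd4, a lipase gene, had -0.24 and -0.18, and Pltp, a phospholipid transfer protein gene, had -0.16 and -0.08.

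The medians of the 32 members were -0.07 at 1 h, -0.29 at 8 h and -0.19 at 24 h, where all tested loci had medians of 0.01, 0.01 and 0.02. Ratios below 0 were held by 20, 25 and 23 of the 32 members, and by 48.4%, 48.7% and 47.9% of all tested loci. The 27 members that were never called had medians of -0.06, -0.24 and -0.16. These medians describe the list and carry no test. Of the 32, 27 stood lower at 8 h than at 24 h relative to 0 h, as did 46.4% of 11723 loci with a unique name. The 5 that stood lower at 24 h were Trp53, Mdm4, Sesn2, Xpc and Rrm2b.

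**Figure D3:**
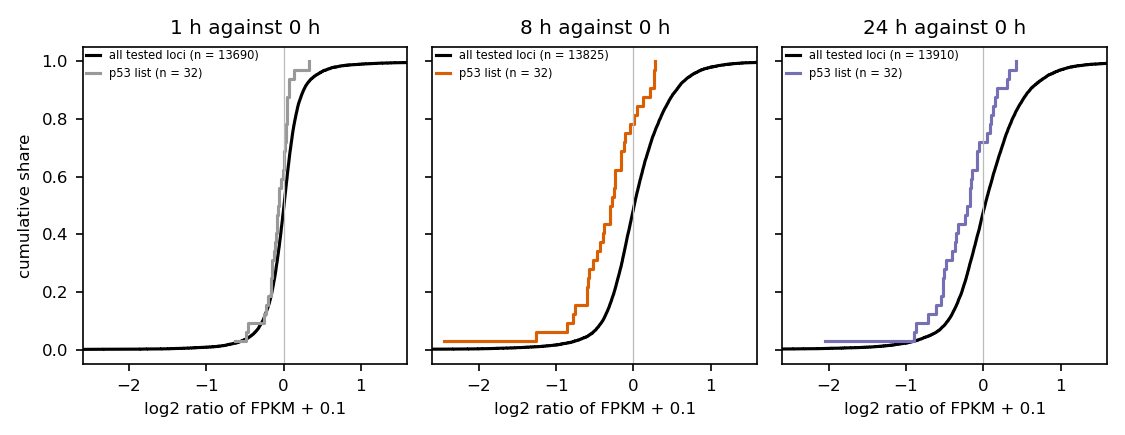
Cumulative share (vertical axis) of log2 ratios of FPKM + 0.1 (horizontal axis) for the 32 tested members (coloured) and all tested loci (black) at 1, 8 and 24 h against 0 h. The members' median lies at -0.29 at 8 h and -0.19 at 24 h, left of the medians of all loci of 0.01 and 0.02.

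Genes around the members were read from 5 further lists, 86 of whose genes were tested at each time. The counts below stand beside 0.402%, 4.43% and 5.48% of all tested loci called at 1, 8 and 24 h. Of 28 other p53 targets, 0 were called lower and 2 higher at 8 h, and 1 lower and 4 higher at 24 h. Ppm1d, which encodes the phosphatase WIP1 that switches off the damage response, was at 16.2 FPKM (12.9 to 19.4) at 0 h and 26.7 (21.5 to 31.9) after 8 h, with log2 ratios of 0.72 and 0.67. Tnfaip8, an anti-apoptotic gene, was at 27.1 (21.1 to 33.2) and 58.1 (45.4 to 70.8), with 1.10 and 0.99. Tigar, a gene of sugar metabolism, was higher at 24 h (5.35 to 8.59 FPKM, 0.67). Zfp385a, a gene of a p53 cofactor, was lower at 24 h (39.3 to 25.6 FPKM, -0.62).

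Ddit4, a stress-induced inhibitor of mTORC1, was called lower at 1 h (137.7 to 72.4 FPKM, -0.93) and higher at 24 h (139.9 to 227.0 FPKM, 0.70), and its locus overlaps the expressed Ascc1 and Anapc16. It was the single call among the 86 genes at 1 h. The 28 targets had medians of -0.03, -0.10 and 0.06 at the 3 times. Whether this list differs from the members was not tested.

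Of 17 genes of the p53 family and its upstream control, 1 was called. Hipk2, a kinase gene whose product phosphorylates p53, was higher at 8 h (21.5 to 35.2 FPKM, 0.71) and had 0.51 at 24 h with overlapping intervals. Of 21 cell cycle genes that are known to be lowered through p21, Cdc20, an activator of the anaphase-promoting complex, was the single call. It went from 109.3 (87.2 to 131.4) to 64.9 FPKM (50.7 to 79.1) at 8 h and had ratios of -0.75 and -0.82, and its locus overlaps Elovl1. The medians of these 21 genes were -0.05, -0.15 and -0.19.

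None of 16 other BCL2 family genes and caspases was called, where 4.43% of all loci at 8 h and 5.48% at 24 h were. Among 4 other inhibitors of cyclin-dependent kinases, Cdkn2d (p19) was higher at both later times (12.5 to 19.6 FPKM at 8 h, 0.64, and 12.6 to 22.4 at 24 h, 0.83). The 6 genes of these lists without a single row of their own (Chek1, Rchy1, Rpl5, Foxm1, Bcl2l2 and Diablo) were left out.

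**Figure D4:**
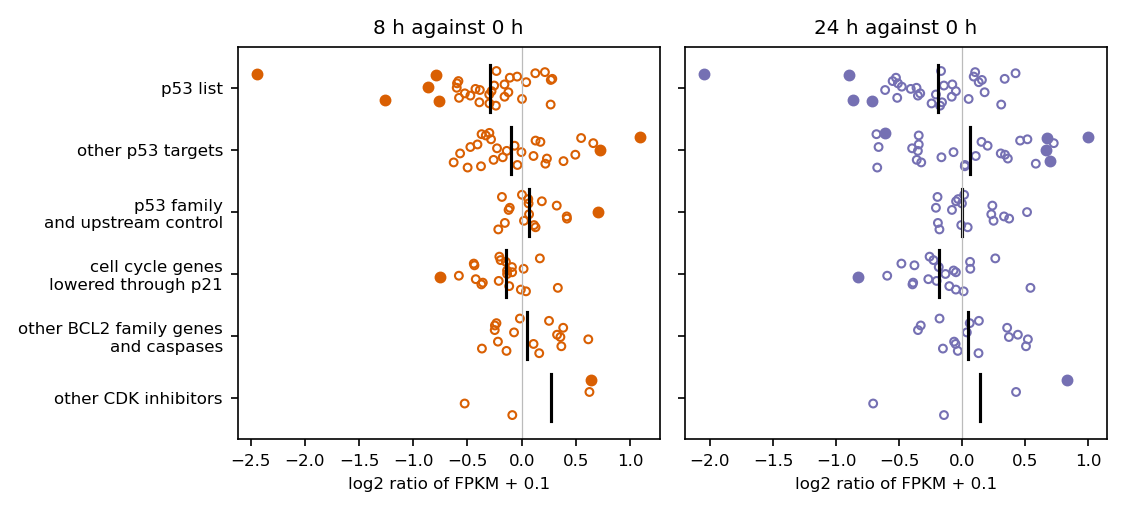
Log2 ratios of FPKM + 0.1 at 8 h and 24 h against 0 h for the 32 tested members and the tested genes of 5 further lists. Each point is a gene, filled where called, and the vertical bar is the list's median, which lies at -0.29 and -0.19 for the members.

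The members' transcripts were also set beside those of all tested genes, a property the choice did not use. Coding exon density is of interest because m6A is known to be sparse near exon junctions. For 31 coding members the median was 6.08 coding exon junctions per kb of coding sequence, against 6.16 for 10954 genes in the 8 h table. The pentamer GGACT, the most common m6A context, searched on the transcript strand alone, occurred at a median of 1.10 per kb of transcript in members and 1.05 in all genes. All genes were put into 10 bins of equal size by exon density. Relative to the median ratio of the genes in the same bin, the members lay at a median of -0.05, -0.31 and -0.24 at 1, 8 and 24 h.

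Cdkn1a has 2 coding exons and 2.10 junctions per kb, in a bin whose median log2 ratio at 8 h was 0.35. Its ratio of -1.26 lay -1.60 from that median. Trp53, with 7.69 junctions per kb, had no GGACT in its representative transcript of 1771 bases. At 8 h, 28 of the 31 coding members lay below the median of their own bin. Of all 10954 genes, 5474 lay below, a share fixed by the use of a median. All 4 coding members called at one time or more lay below at 8 h and at 24 h. At 8 h this followed from the call itself, because their bins had medians from -0.11 to 0.35, and it adds nothing to the calls.

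**Figure D5:**
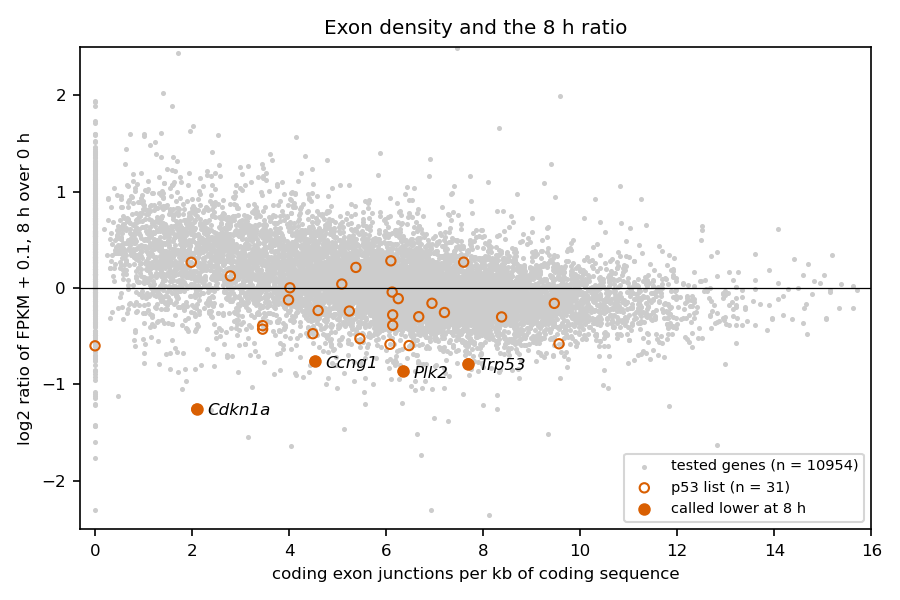
Log2 ratio of FPKM + 0.1 at 8 h over 0 h (vertical axis) against coding exon junctions per kb of coding sequence (horizontal axis) for 10954 tested genes (grey) and 31 coding members (orange), with 14 genes outside the axes. The 4 members called lower at 8 h (filled, named) lie below the grey cloud's middle at their own density, which follows from the call itself.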

How the data were processed

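RNA from 8 samples in 4 groups of 2 was analysed. The authors deposited 3 pairs of tables, each setting 0 h against 1, 8 or 24 h, made with Cufflinks 2.2.1 and Cuffdiff on mm10 per the submitters' processing notes. Per the file headers, they hold FPKM with a lower and upper bound and a status. The authors also deposited estimated counts with a variance. Both combine the replicates in a single column per condition. Strand use and the interval's level are not given in the sources used here. The labels mention repeated rounds of library preparation, which the columns do not separate.

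Ratios were formed within a table, as log2 of FPKM + 0.1, which understates changes of low genes. Pooled columns allow no count model across replicates, and calls carry no p-value. Loci with no gene name held 1.04% to 1.08% of counts. The members and lists were chosen with earlier results of these data known. Values in full are given for Trp53, Mdm2 and called members, with others within 0.15 log2 of the limit named. Called genes of the 5 other lists are named. Exon features came from GENCODE M21 and were found for over 92.5% of tested loci with a unique gene name, a smaller set than all tested loci. A planned search of 5000 bases on either side of start sites (or 1000) was not run, and RefSeq windows of 300 bases were used. Scripts were tested on simulated data (Python 3.11.15, pandas 2.3.3). Alternatives were the pseudocount, FPKM and count minimums, estimated counts, centring on the median, a 2-fold limit and calls without intervals.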

Additional observations from a re-analysis of the deposited data

How the results depend on the processing

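No paired analysis was possible because the columns combine both replicates, and neither a replicate block nor leaving out a replicate was run. Depth limits low members: Trp53cor1 rests on 32.1 estimated counts after 8 h. The searches of 5000 and 1000 bases around start sites were not run.

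With estimated counts, 1 member was called at 1 h (Trp53cor1), 7 at 8 h (with Phlda3 and Pmaip1 added) and 5 at 24 h (with Mdm4 added), all lower. Of all loci 0.804%, 8.29% and 10.3% were called by that rule in either direction. The same counts of members were called by the fold without the intervals, by which 1 member at 1 h, 7 at 8 h and 5 at 24 h were lower, where 2.57%, 4.8% and 6.53% of loci were. With a 2-fold limit, 2 members stayed called at 8 h (Cdkn1a and Trp53cor1) and 1 at 24 h (Trp53cor1), because the limit itself is stricter. Of all loci 1.57% and 2.14% were called by it in either direction, and 1 of 32 members is near the latter share. The share called lower alone by this limit is not given here. With at least 5 FPKM, Trp53cor1 was not tested, and 4 members were called at 8 h and 3 at 24 h. In the other lists, calls at 1, 8 and 24 h numbered 1, 5 and 7 of 86 genes, where 0.402%, 4.43% and 5.48% of loci were called. With a 2-fold limit they were 0, 1 and 0, where 0.285%, 1.57% and 2.14% of loci were. Estimated counts gave 9 at 8 h and 12 at 24 h, where 8.29% and 10.3% of loci were called. Calls without the intervals numbered 9 at 8 h, where 13.7% of loci were called in either direction. They numbered 13 at 24 h, for which the share of loci is not given here. Hipk2 at 1 h, which was not called, turned from 0.01 to -0.011 with estimated counts, and the cause was not tested. The members' median at 24 h was -0.24 relative to genes of like exon density, against -0.18 for the same 31 genes without that step. With no spacer, 5 rather than 9 members held an element. Single-gene values were recomputed for 6 members (Trp53, Mdm2, Cdkn1a, Ccng1, Plk2 and Trp53cor1). Of these values, 151 kept direction and call, 6 lost the call under the 2-fold limit and 2 gained it. Of values of the 8 named genes of other lists, 203 kept both, 12 lost the call and 1 turned.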
